A study of Mus musculus with 32 samples.

Results

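The genes described here are 8 heat shock genes, Hspa1a, Hspa1b, Hspa8, Hsph1, Hsp90aa1, Dnajb1, Hspb1 and Hspe1, and 2 genes for cold-inducible RNA-binding proteins, Cirbp and Rbm3. They were taken by gene name from the table of normalized read counts, where they are 10 of 18124 genes, and all 10 passed the filter on low values (a mean of at least 10). RNA was sequenced from subcutaneous white fat of C57BL/6J mice that had undergone, 9 days earlier, either vertical sleeve gastrectomy (VSG), in which the greater part of the stomach is cut away, or a sham operation. Both groups received liquid diet before surgery, were fasted overnight, returned to liquid diet until day 3 and were offered a high-fat diet beside it on day 4. Fat was taken at zeitgeber time (ZT, hours after lights on) 1, 7, 13 or 19 from 4 animals per surgery and time, which gives 8 groups and 32 libraries, 16 per surgery.

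Heat shock proteins are chaperones, which hold or refold unfolded proteins. Their genes are switched on by the transcription factor HSF1 when a cell is warmed, starved of oxygen or otherwise stressed. Cirbp and Rbm3 go the other way, with more mRNA in mildly cooled cells and less in warmed ones. Body temperature of mice follows a daily rhythm and is higher in the active night, so in many mouse tissues transcripts of the 2 kinds are known to cycle in opposite phase. No body or tissue temperature was used here.

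The 10 genes fall into 3 roles. Hspa1a and Hspa1b encode the stress-inducible Hsp70, Hspa8 the constitutive Hsc70, Hsph1 (Hsp110) exchanges the nucleotide of Hsp70, Dnajb1 (Hsp40) brings it clients, and Hsp90aa1 is the inducible cytosolic Hsp90. Hspb1 (Hsp27) is a small heat shock protein that keeps unfolding proteins from clumping, and Hspe1 (Hsp10) is the lid of the mitochondrial Hsp60 chamber. Cirbp and Rbm3 bind RNA and act on mRNA stability, translation and polyadenylation site choice.

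Of the 10 genes, 7 have a promoter window in the RefSeq table (GRCm38.p6), 250 bases before to 50 bases after the start site. Hspa8, Hsp90aa1 and Rbm3 are named only. The 4 sequences printed here are the 250 bases before the start site, read 5′ to 3′ on the gene's strand, of the cold-inducible gene with the larger daily change (Cirbp), of the inducible Hsp70 gene with the larger one (Hspa1b), of the heat shock gene with the largest surgery difference (Hspb1), and of the gene with the densest heat shock elements in these windows, which was called in none of the comparisons (Hspe1). Capitals mark the motifs searched on both strands. These were the heat shock element as head-to-head units (GAANNTTC), as tail-to-tail units (TTCNNGAA) and as 3 alternating units, which overlap the first pair of forms, and the mild cold response element reported for Cirbp (TCCCCGCC or its complement GGCGGGGA).
Cirbp, chr10:80167589-80167838, + strand: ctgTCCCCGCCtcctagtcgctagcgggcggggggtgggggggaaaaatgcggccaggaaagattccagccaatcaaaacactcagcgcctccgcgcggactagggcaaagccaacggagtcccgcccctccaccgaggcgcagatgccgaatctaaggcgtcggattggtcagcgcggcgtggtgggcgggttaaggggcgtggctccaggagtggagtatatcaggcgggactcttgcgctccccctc
Hspa1b, chr17:34959239-34959488, - strand: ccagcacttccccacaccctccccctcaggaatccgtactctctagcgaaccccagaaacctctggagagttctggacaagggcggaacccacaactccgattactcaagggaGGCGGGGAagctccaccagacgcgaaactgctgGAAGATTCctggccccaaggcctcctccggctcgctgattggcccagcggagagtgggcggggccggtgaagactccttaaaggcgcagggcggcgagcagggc
Hspb1, chr5:135887669-135887918, + strand: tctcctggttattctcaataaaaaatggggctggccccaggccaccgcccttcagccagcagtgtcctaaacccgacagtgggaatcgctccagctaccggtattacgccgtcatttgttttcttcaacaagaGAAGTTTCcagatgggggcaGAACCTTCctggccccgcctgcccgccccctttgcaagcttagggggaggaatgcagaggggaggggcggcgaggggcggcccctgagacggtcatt
Hspe1, chr1:55087898-55088147, + strand: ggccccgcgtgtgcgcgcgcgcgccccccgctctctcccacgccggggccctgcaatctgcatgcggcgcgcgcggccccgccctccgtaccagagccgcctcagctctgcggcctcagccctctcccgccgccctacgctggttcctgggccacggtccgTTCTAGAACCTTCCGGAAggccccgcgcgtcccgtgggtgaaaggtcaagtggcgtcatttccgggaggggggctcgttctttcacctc
The RefSeq start of Cirbp used here lies inside the deposited gene span, and positions are counted from the RefSeq start as 1, with the base before it as -1. Hspe1 held overlapping 3-unit heat shock elements at -89 and -84, a form found in 0.603% of 32851 windows of the same length. Hsph1 held a 3-unit element just inside the transcribed part, at 37, and a tail-to-tail pair at -33. Hspb1 held head-to-head pairs at -117 and -97. Hspa1a and Hspa1b each held a head-to-head pair at -104, a form found in 7.86% of all windows (the tail-to-tail form is in 8.52%), and a mild cold response element at -137. Cirbp held a mild cold response element at -247, a motif found in 5.38% of all windows, and no heat shock element. Dnajb1 had none of these letters in the first of its 2 windows, and a mild cold response element at 35 in the second. A match is a description of the letters only.

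Hspa1a and Hspa1b cannot be fully separated. Their coding sequences, taken as the longest open reading frames of the GENCODE M21 transcripts, share 1918 of 1926 aligned bases (99.6%), with an identical run of 638 bases, so reads between them could be split in an unknown way. Their exons lie on chromosome 17, at 34969190 to 34972156 (Hspa1a, ENSMUSG00000091971) and 34956436 to 34959238 (Hspa1b, ENSMUSG00000090877), both on the minus strand, in mm10. Exons of Hspa1a overlap Gm20481 on the opposite strand, those of Hspe1 overlap Hspd1 (Hsp60), with which it shares a head-to-head locus, and those of Rbm3 overlap the antisense gene Rbm3os. Exons annotated for Hspa8 overlap the small nucleolar RNA genes Snord14c, Snord14d and Snord14e. The sources used here do not say whether strand was used in counting, and these pairs may share reads.

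The libraries held 15.7 to 37.2 times 1e6 reads assigned to genes, and the 10 genes were read at depths from 21 reads (Hspa1a in its lowest library) to 9360 reads (Hspa8 in its highest). All 12 listed adipocyte markers were detected in each library, with mean log2 levels of 14.5 to 15.9. Some libraries carried RNA of other tissues. Libraries high in B cell or muscle markers were those above the largest gap between ranked library means of the list. Counts of markers high in them follow in part from that choice. Of 14 B cell markers, none at 0 in any library, 13 were higher in 4 libraries (sham ZT1 replicate 1, VSG ZT1 replicates 1 and 3, VSG ZT13 replicate 1) than in any other. The exception, Ighm, was as low as 17054 in these 4 and reached 56026 elsewhere. The summed level of the list, Ighm included, ranged from 8284 to 102870 in sham (median 43312) and from 3883 to 125108 after VSG (median 7679). Skeletal muscle markers (16 genes, 4 of them at 0 in some library) summed to 1508 to 83646 in sham and 909 to 87165 after VSG, and were high in 7 libraries: sham ZT1 replicate 4, sham ZT13 replicate 2, VSG ZT1 replicate 2, VSG ZT13 replicate 3 and VSG ZT19 replicates 1, 2 and 4. Brown and beige fat markers were high in sham ZT19 replicate 4 and VSG ZT7 replicate 2. Results are given in full and with these libraries removed where that changes them. Removing the muscle-high libraries leaves only replicate 3 of VSG ZT19. Removing the B-cell-high ones as well also leaves only replicate 4 of VSG ZT1. Nothing in the labels ties replicates to separate litters or cages, and p-values measure the spread between these animals only.

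**Figure D1:**
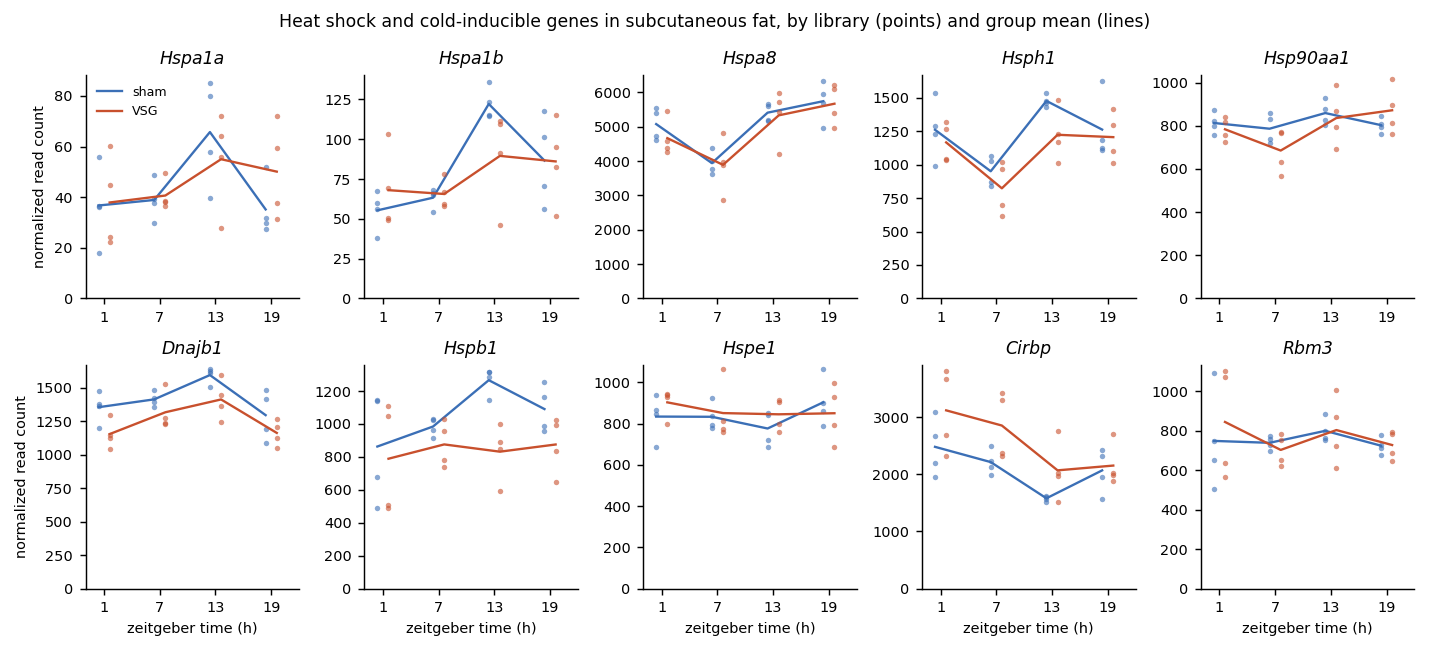
Normalized read count (vertical axis, from 0) of each of the 10 genes at zeitgeber time 1, 7, 13 and 19 h (horizontal axis); points are libraries, 4 per group, lines join group means, blue is sham and red is VSG. Cirbp was lowest at ZT13, where Hspa1b, Hsph1 and Dnajb1 had their highest group means in both surgeries.

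The first question was whether these genes follow a 24 h rhythm. A cosine of 24 h was fitted per surgery to log2(value + 1) with limma, and a rhythm averaged over both surgeries was tested on all 32 libraries. The amplitude runs from the fitted mean to the peak, on the log2 scale, and since sampling was every 6 h the peak is an interpolation. Over both surgeries 5 of the 10 genes were called (adjusted p under 0.05) against 6.61% of 15588 genes tested: the heat shock genes Hspa8, Hspa1b, Dnajb1 and Hsph1, and Cirbp. The 4 heat shock genes peaked between ZT11.0 and ZT18.1, and Cirbp peaked at ZT2.5. In the same fit all 11 core clock genes listed as a reference were called, with a median amplitude of 1.08, against 0.23 for the 8 heat shock genes, 0.18 for the 2 cold-inducible genes and 0.12 for all genes tested.

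Hspa8, the constitutive Hsc70 gene (ENSMUSG00000015656, chromosome 9, 40800984 to 40805200), had the smallest p. In sham it stood at 4627, 5539, 5413 and 4732 at ZT1, at 3998, 4394, 3755 and 3617 at ZT7, at 5165, 5211, 5615 and 5651 at ZT13, and at 5969, 4973, 6348 and 5690 at ZT19. After VSG it stood at 4266, 5448, 4379 and 4581 at ZT1, at 3975, 2868, 3886 and 4830 at ZT7, at 4194, 5981, 5732 and 5421 at ZT13, and at 4968, 6215, 6091 and 5410 at ZT19. In both surgeries ZT7 was the low point and ZT19 the high one, and those groups did not overlap. The amplitude was 0.28 ± 0.05 (SE) over both surgeries, a 1.48-fold peak-to-trough change peaking at ZT18.1 (limma adjusted p = 0.00058). The fitted peaks in the separate surgeries, ZT18.3 in sham and ZT17.8 after VSG, lay within 1 h of each other. On its own each surgery fell short of the threshold, with limma adjusted p = 0.0553 in sham and 0.0631 after VSG.

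Cirbp (ENSMUSG00000045193, chromosome 10, 80165985 to 80172786) differed in phase from Hspa8, which was lowest at ZT7. Cirbp was lowest on average at ZT13 in both surgeries, with a fitted peak at ZT2.5 over both. In sham its values were 3102, 2202, 1963 and 2669 at ZT1, 2122, 2245, 1993 and 2507 at ZT7, 1610, 1626, 1578 and 1513 at ZT13, and 1569, 2320, 1963 and 2433 at ZT19. The sham ZT13 libraries were tightly grouped and all below every ZT1 and ZT7 library. After VSG its values were 3678, 2315, 3809 and 2693 at ZT1, 2377, 3427, 3312 and 2315 at ZT7, 2766, 1524, 2027 and 1970 at ZT13, and 2709, 1996, 1892 and 2025 at ZT19. After VSG the ZT1 and ZT13 groups overlapped through 1 library, VSG ZT13 replicate 1, one of those high in B cell markers. The amplitude over both surgeries was 0.33 ± 0.06, a 1.58-fold peak-to-trough change (limma adjusted p = 0.00445). The amplitudes in sham, 0.32, and after VSG, 0.36, were close, but neither surgery alone was called, with limma adjusted p = 0.135 and 0.149. With the 4 B-cell-high libraries removed, the amplitude over both surgeries was 0.29 and remained called (limma adjusted p = 0.0151, with a range of 0.000175 to 0.0449 over the alternatives). Rbm3, the other cold-inducible gene (ENSMUSG00000031167, chromosome X, 8138975 to 8145880), was not called: its amplitude was 0.03 ± 0.07 (limma adjusted p = 0.948), and its sham group means ran only from 724 ± 42.3 at ZT19 to 799 ± 59.7 at ZT13 (SD, n = 4). Its amplitude depended on the libraries used: without the B-cell-high ones it was 0.15 ± 0.05 with a peak at ZT13.1, still not called (limma adjusted p = 0.116, range 0.111 to 0.999 over the alternatives).

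Hspa1b, an inducible Hsp70 gene, had the largest amplitude of the 10. In sham its values were 37.6, 67.4, 60.2 and 56.0 at ZT1, 66.1, 64.8, 54.3 and 67.9 at ZT7, 136, 115, 114 and 123 at ZT13, and 56.2, 118, 102 and 70.6 at ZT19. The sham ZT13 mean was 2.21 times the ZT1 mean, and the ZT13 libraries did not overlap with ZT1 or ZT7. After VSG its values were 49.0, 103, 50.4 and 69.4 at ZT1, 66.6, 59.5, 58.1 and 78.1 at ZT7, 45.9, 111, 110 and 91.1 at ZT13, and 94.8, 82.7, 115 and 51.5 at ZT19, and all 4 times overlapped. Over both surgeries the amplitude was 0.43 ± 0.10 with a peak at ZT14.7 (limma adjusted p = 0.0175, range 0.00105 to 0.153 over the alternatives). That call was lost with muscle and B cell markers as covariates and without the 5 libraries highest in B cell markers. In sham the amplitude was 0.61 ± 0.14, a 2.33-fold peak-to-trough change peaking at ZT14.3 (limma adjusted p = 0.0349). Hspa1b was the only member called within a single surgery, where 1.6% of all genes were called in sham and 0.507% after VSG. Under quantile scaling Hspa1b was not called in sham (limma adjusted p = 0.0753, range 0.0014 to 0.109 over the alternatives). After VSG the amplitude was 0.25 ± 0.14 (limma adjusted p = 0.744). Of the 10 genes, 0 were called for a rhythm after VSG, while edgeR called 0 and DESeq2 called 2 (Hspa8 and Cirbp). An unadjusted limma p under 0.05 was found for 5 members after VSG, beside 1352 of all 15588 genes.

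Its near-copy Hspa1a had sham values of 18.0, 36.6, 36.3 and 56.0 at ZT1 and of 80.0, 85.1, 58.0 and 39.8 at ZT13, which overlapped, and its amplitude over both surgeries, 0.36 ± 0.13, was not called (limma adjusted p = 0.153). Summed into 1 value, since the genes may trade reads, the pair had an amplitude of 0.40 over both surgeries and was called (limma adjusted p = 0.0352), but not in sham alone (limma adjusted p = 0.0993). Hspa1b made up 50 to 77.3% of the sum in sham libraries and 56.8 to 68.7% after VSG.

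The co-chaperones of Hsp70 cycled with smaller amplitude. Dnajb1 (ENSMUSG00000005483, chromosome 8, 83608175 to 83611902) stood in sham at 1359, 1378, 1476 and 1199 at ZT1, 1393, 1484, 1352 and 1418 at ZT7, 1640, 1504, 1620 and 1608 at ZT13, and 1416, 1191, 1483 and 1086 at ZT19. The ZT13 libraries were above all others in sham. After VSG it stood at 1126, 1298, 1145 and 1042 at ZT1, 1229, 1233, 1271 and 1530 at ZT7, 1240, 1595, 1361 and 1448 at ZT13, and 1208, 1120, 1265 and 1051 at ZT19, again highest on average at ZT13 but with overlap. Its amplitude over both surgeries was 0.15 ± 0.04, peaking at ZT11.0 (limma adjusted p = 0.0216). Without the 7 libraries high in muscle markers the amplitude was again 0.15 but was not called (limma adjusted p = 0.108, range 0.00332 to 0.128 over the alternatives). Hsph1 (ENSMUSG00000029657, chromosome 5, 149614287 to 149636376) was lowest at ZT7 in both surgeries, with 1027, 874, 1063 and 840 in sham and 967, 615, 695 and 1017 after VSG. At ZT13 it stood at 1540, 1476, 1458 and 1435 in sham, above all 4 ZT7 libraries, and at 1013, 1481, 1230 and 1172 after VSG. Its amplitude was 0.25 ± 0.07, peaking at ZT17.8, and its limma adjusted p of 0.045 lay close to the threshold. It was not called without the muscle-high libraries (limma adjusted p = 0.0756, range 0.00248 to 0.129 over the alternatives), without the B-cell-high ones (0.0606) or without the 2 high in brown and beige fat markers (0.0522). That call was lost on leaving out any 1 of 18 of the 32 libraries, at adjusted p between 0.0515 and 0.0898: in sham ZT1 replicate 4, all 4 at ZT7, all 4 at ZT13 and ZT19 replicate 1, and after VSG ZT1 replicates 1 and 3, ZT7 replicates 2 and 3, ZT13 replicates 2 and 4, and ZT19 replicates 2 and 3.

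Hsp90aa1, Hspb1 and Hspe1 were not called. Hsp90aa1 (ENSMUSG00000021270, chromosome 12, 110690605 to 110702728) had an amplitude of 0.10 ± 0.04 (limma adjusted p = 0.17), with values in sham between 718 and 929 and after VSG between 566 and 1015. Hspb1 had sham group means from 863 ± 331 at ZT1 to 1266 ± 81.1 at ZT13 and VSG means only from 789 ± 336 at ZT1 to 876 ± 141 at ZT7 (SD, n = 4). The wide ZT1 spread came from values of 490 and 678 beside 1146 and 1138 in sham, and of 487 and 511 beside 1047 and 1111 after VSG. Its amplitude over both surgeries was 0.20 ± 0.09 (limma adjusted p = 0.26), and 0.063 without the B-cell-high libraries (limma adjusted p = 0.775, range 0.113 to 0.961 over the alternatives). Hspe1 (ENSMUSG00000073676, chromosome 1, 55088132 to 55091307), whose promoter window holds the 3-unit heat shock elements printed above, had an amplitude of 0.06 ± 0.04 (limma adjusted p = 0.647).

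**Figure D2:**
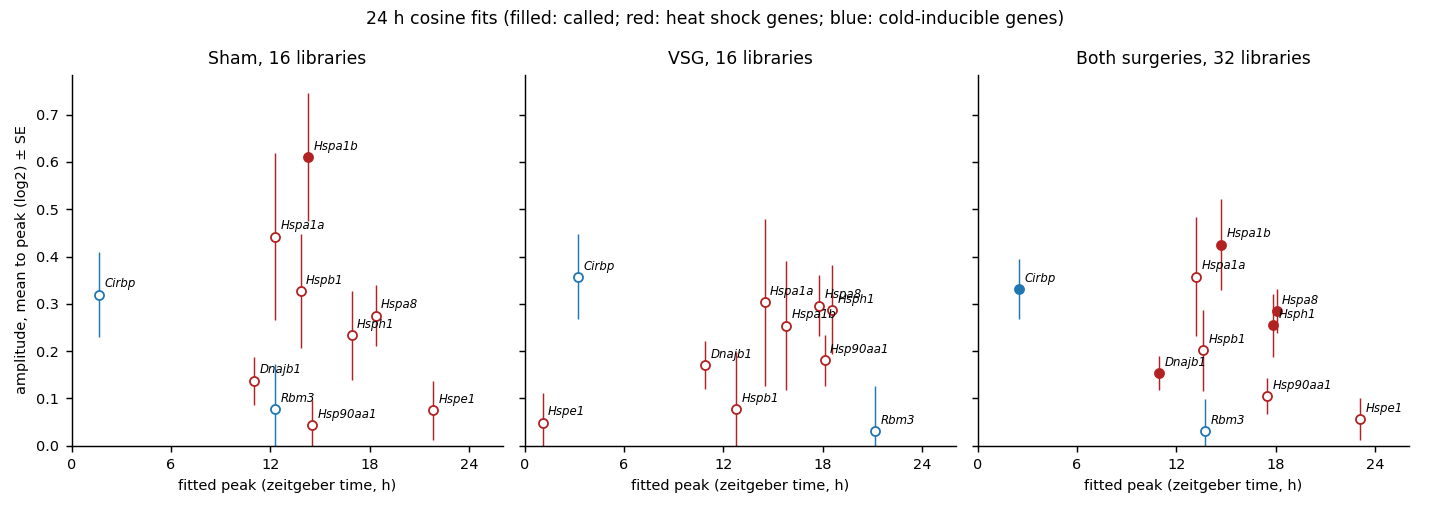
Amplitude of the fitted 24 h cosine in log2 units (vertical axis, bars ± SE) against the fitted peak in zeitgeber time (horizontal axis, h) in sham, after VSG and over both surgeries; filled points were called and open points were not. Cirbp sits alone near ZT2.5, and the called heat shock genes sit between ZT11.0 and ZT18.1.

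In sham, 6 of the 8 heat shock genes had their highest group mean at ZT13 and the other 2 (Hspa8 and Hspe1) at ZT19. After VSG 4 of the 8 had it at ZT13, 2 at ZT19, 1 at ZT7 (Hspb1) and 1 at ZT1 (Hspe1). The share of all genes highest at each time was not computed, and some maxima were small. In sham Hsp90aa1 had means of 859 at ZT13 and 786 at ZT7, with overlap. For 6 of the 10 genes the highest and lowest times in sham did not overlap (Hspa1b, Hspa8, Hsph1, Dnajb1, Hspb1 and Cirbp), against 22.2% of all genes tested. After VSG this held for 1, Hspa8, against 20.5% of all genes. The difference in rhythm between the surgeries was itself tested, and limma called 0 of the 10 genes and 0% of all genes, with 0 members at an unadjusted p under 0.05 and 0 called by edgeR or DESeq2. The rhythms of sham and VSG were therefore not shown to differ. The largest difference was that of Hspa1b, with an amplitude of 0.39 ± 0.19 (limma adjusted p = 1.00).

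The second comparison asked whether the surgery changed these genes over all 4 times. Of the 10 genes 3 were called, against 39.2% of all genes tested (18.3% higher and 20.9% lower after VSG), so the members showed no excess of calls. Cirbp rose, and Dnajb1 and Hspb1 fell. The Cirbp mean was 2552 ± 689 in VSG libraries and 2088 ± 454 in sham libraries (SD over 16 libraries each), a log2 fold change of 0.27 ± 0.09 (SE), or 1.21-fold higher (limma adjusted p = 0.0199). Its group mean was higher after VSG at all 4 times. Dnajb1 had 1260 ± 159 after VSG against 1413 ± 156 (SD, n = 16), a log2 fold change of -0.17 ± 0.05, or 1.12-fold lower (limma adjusted p = 0.00895), and was lower at all 4 times.

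Hspb1 (ENSMUSG00000004951, chromosome 5, 135887919 to 135889563) had 842.9 ± 199.5 after VSG against 1051 ± 227 (SD, n = 16), a log2 fold change of -0.32 ± 0.12, or 1.25-fold lower (limma adjusted p = 0.0396). Its group mean was lower at all 4 times, but at ZT1 the log2 fold change turned to 0.17 without the B-cell-high libraries. The gap was widest at ZT13, where the sham libraries stood at 1319, 1314, 1146 and 1286 and the VSG libraries at 592, 888, 849 and 998, without overlap. The Hspb1 call was lost on leaving out any 1 of 16 of the 32 libraries, at adjusted p between 0.0519 and 0.0732: in sham ZT1 replicates 2 and 3, ZT7 replicates 1 and 4, ZT13 replicates 1, 2 and 4, and ZT19 replicates 1 and 2, and after VSG ZT1 replicates 1 and 3, ZT7 replicates 1 and 2, ZT13 replicate 1, and ZT19 replicates 3 and 4. At ZT1 the sign turned on leaving out sham replicate 2 or 3 or VSG replicate 1 or 3.

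The other members were not called. Hsph1 stood at a log2 fold change of -0.17 ± 0.08 (limma adjusted p = 0.0869, range 0.0415 to 0.449 over the alternatives). For the rest the 95% intervals were -0.29 to 0.44 for Hspa1a, -0.34 to 0.23 for Hspa1b, -0.18 to 0.08 for Hspa8, -0.16 to 0.06 for Hsp90aa1, -0.09 to 0.17 for Hspe1 and -0.18 to 0.22 for Rbm3. The sign of each of these 6 changed under at least 1 alternative. The median log2 fold change was -0.05 for the 8 heat shock genes and 0.15 for the 2 cold-inducible genes, beside 0.01 for all genes tested.

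**Figure D3:**
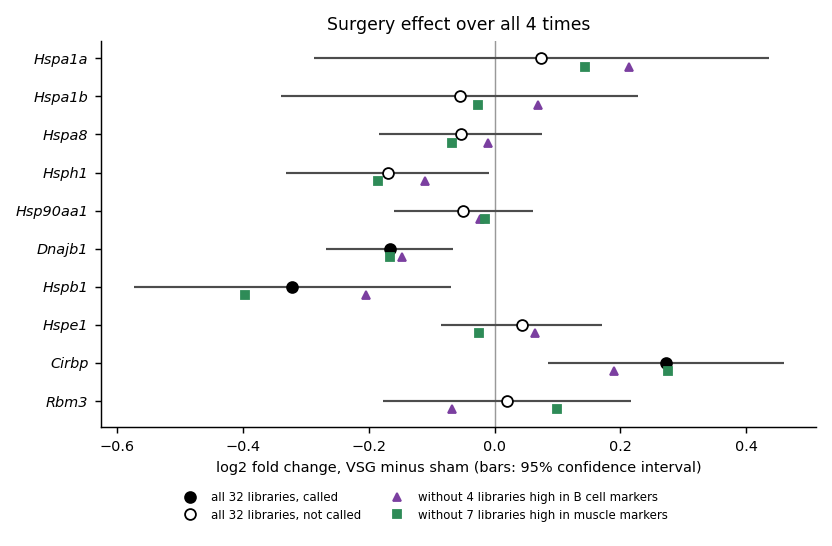
Log2 fold change of VSG minus sham over all 4 times (horizontal axis) for each gene, with the 95% confidence interval as a bar; black points were called and open points were not, triangles omit the 4 B-cell-high libraries and squares the 7 high in muscle markers. Cirbp lies above 0 and Dnajb1 and Hspb1 below 0 in all 3 versions.

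At single times 0 of the 10 genes were called by limma, edgeR or DESeq2. The share of all genes called was 5.52% at ZT1, 5.09% at ZT7, 9.94% at ZT13 and 0% at ZT19. An unadjusted p under 0.05 was found for 1 member at ZT1 (Dnajb1), 0 at ZT7, 1 at ZT13 (Hspb1) and 0 at ZT19. Of all 15588 genes tested, 3869, 3422, 4326 and 1072 had such a p at these times. At ZT13 the surgeries did not overlap for 2 members, Hspb1 and Hspa1b, against 20.8% of all genes; at ZT1, ZT7 and ZT19 this held for 0 members, against 8.97%, 15.7% and 3.22% of all genes. For Hspb1 at ZT13 the log2 fold change was -0.63 ± 0.25 (limma adjusted p = 0.0952) and for Hspa1b it was -0.52 ± 0.28 (limma adjusted p = 0.219). The interaction of surgery and time was called for 0 members and 0% of all genes by limma, with 0 members at an unadjusted p under 0.05 and 0 called by edgeR or DESeq2.

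Within each surgery a slope on the recorded weight loss (given without a unit) was fitted with a mean per time. None of the 10 genes was called by limma, edgeR or DESeq2 in either, against 2.71% of all genes after VSG and 0.00642% in sham. After VSG 0 members had an unadjusted p under 0.05, beside 3140 of all 15588 genes. In sham 2 members did, beside 2436 of all 15588 genes. These were Hsph1 at -0.06 ± 0.02 and Dnajb1 at -0.04 ± 0.02 log2 per unit of weight loss, with limma adjusted p of 0.18 and 0.263.

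The libraries that carried B cell RNA were also extreme for several members. Their Rbm3 values, 1008 to 1104, were the 4 highest of all 32 libraries, against 503 to 884 elsewhere. Their Cirbp values, 2766 to 3809, ranked between 1 and 6. Their Hspb1 values, 487 to 592, and Hspa1b values, 37.6 to 50.4, were the 4 lowest of all libraries, against at least 648 and 51.5 elsewhere. Of these 4 libraries 3 were VSG and 1 was sham, and all but VSG ZT13 replicate 1 were taken at ZT1. At ZT1 Cirbp had its highest group mean and Hspb1 its lowest in both surgeries, and Hspa1b its lowest in sham. Time and surgery are therefore mixed into these ranks. In bulk tissue fewer cells of a type and less RNA per cell cannot be told apart. With muscle and B cell markers as covariates in the fit, no member was called on surgery over all times. Beyond that fit, the part of B cell RNA in these values was not tested except by leaving the libraries out. Without them only Dnajb1 of the 3 surgery calls was kept (-0.15, limma adjusted p = 0.0382, range 0.0013 to 0.161 over the alternatives), with Cirbp at 0.19 (adjusted p = 0.0696, range 0.0012 to 0.337) and Hspb1 at -0.20 (adjusted p = 0.056, range 0.0018 to 0.367).

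In the 7 libraries high in muscle markers the median Hspa1a value was 60.2, against 38.0 in the others, and that of Hspa1b was 94.8 against 67.4. Medians of Dnajb1 (1208 against 1378) and Rbm3 (652 against 753) were lower there, and that of Hsp90aa1 was 812 against 805. These 7 libraries include VSG ZT19 replicates 1, 2 and 4 and no library of ZT7. Time of day and surgery are therefore mixed into these medians. Without those 7 libraries only replicate 3 was left of VSG ZT19. The log2 fold change over all times was then 0.28 for Cirbp, -0.40 for Hspb1 and -0.17 for Dnajb1. The 2 libraries high in brown and beige fat markers had the 2 highest Hspe1 values, 1062 and 1066, against 684 to 995 elsewhere. Neutrophil markers rose after VSG in 10 of 10 listed genes, with summed levels of 738 to 19899 after VSG and 324 to 1365 in sham, and 3 of the 10 at 0 in some library; their part in the surgery differences was not tested.

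**Figure D4:**
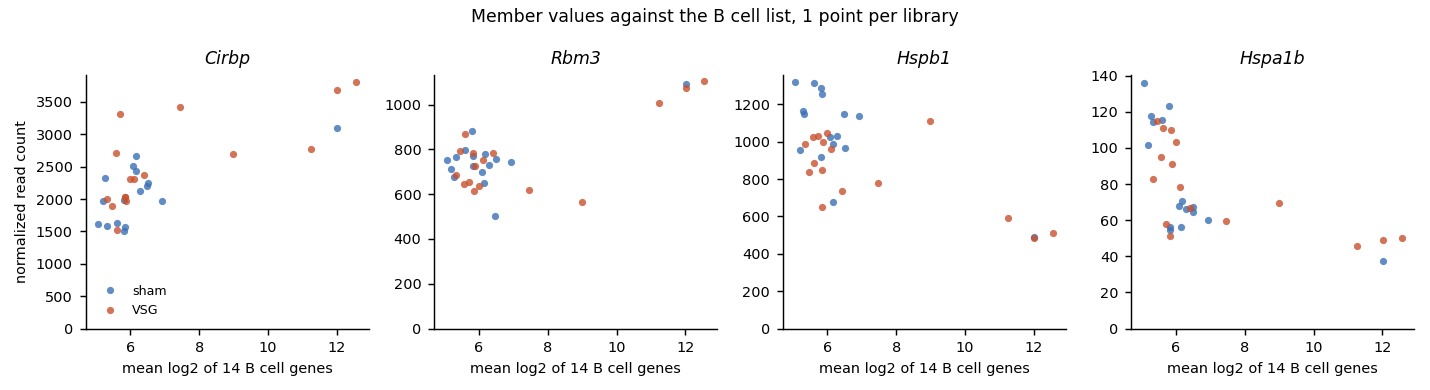
Normalized read count of Cirbp, Rbm3, Hspb1 and Hspa1b (vertical axes, from 0) against the mean log2 level of 14 B cell genes (horizontal axis); each point is 1 library, blue for sham and red for VSG. The 4 libraries at the right had the 4 highest Rbm3 values and the 4 lowest Hspb1 and Hspa1b values.

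Other genes of the heat and cold response were read from lists chosen with earlier results of these data known. Of 30 further cytosolic chaperones and co-chaperones 14 were called over all times, 4 higher and 10 lower after VSG, with a list median of -0.07, beside 39.2% of all genes (18.3% higher and 20.9% lower). Without the B-cell-high libraries 5 were higher and 7 lower. With the number in the sample title as a replicate block (described at the end), 0 were higher and 1 lower. The collagen chaperone gene Serpinh1 fell by 0.78 on the log2 scale, the Hsp70-family genes Hspa12a and Hspa14 by 0.75 and 0.43, and the Hsp40 gene Dnajb4 by 0.52. The co-chaperone Bag1 rose by 0.33 and Dnajb2 by 0.28. All 4 called of 5 tested small heat shock protein genes fell, as did Hspb1: Cryab by 0.83 (limma adjusted p = 0.000567), Hspb2 by 0.73, Hspb8 by 0.58 and Hspb6 by 0.36, with a list median of -0.63, where 20.9% of all genes fell. The 4 lowest of the 32 library means of this list, 7.36 to 8.10 on the log2 scale, were those of the 4 B-cell-high libraries, 3 of them VSG. Without these libraries the same 4 genes were called lower, by smaller amounts: Cryab by 0.60 (limma adjusted p = 0.00142), Hspb2 by 0.49, Hspb8 by 0.45 and Hspb6 by 0.26. Without the muscle-high libraries as well, Hspb2 was not called (limma adjusted p = 0.0633). With the title-number block 0 of the 5 were called, with limma adjusted p = 0.293 for Cryab and 0.133 for Hspb8.

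All 3 heat shock factor genes were called, where 39.2% of all genes were. Hsf1, the main regulator of the heat shock response, rose by 0.23 ± 0.05 (limma adjusted p = 0.000515) and Hsf4 by 0.68 ± 0.10 (adjusted p = 2.01e-05), while Hsf2 fell by 0.22 ± 0.07 (adjusted p = 0.0144). Without the muscle-high libraries Hsf2 was at -0.16 and not called (adjusted p = 0.199), and without muscle-high and B-cell-high ones at -0.11 (limma adjusted p = 0.471). With the title-number block 0 of the 3 factors were called (limma adjusted p = 0.257 for Hsf1, 0.146 for Hsf4 and 0.285 for Hsf2). Of 9 mitochondrial chaperone genes 1 fell (Grpel1, by 0.16), and of 14 tested splicing kinase and SR protein genes, a set known for temperature-dependent splicing, 1 rose (Clk2, by 0.19), both counts below the 39.2% of all genes. Neither gene was called without the B-cell-high libraries. Gene-level counts do not show splicing.

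For the 24 h rhythm over both surgeries 7 of the 30 cytosolic chaperone genes were called, beside 6.61% of all genes. Without the muscle-high libraries 3 were. The Hsp70 gene Hspa2 had an amplitude of 0.46 peaking at ZT14.2 (limma adjusted p = 0.00014), and the Hsp40 genes Dnaja4 and Dnaja1 had amplitudes of 0.42 and 0.23 peaking at ZT15.7 and ZT15.8. Bag3 and Dnajb4 peaked earlier, at ZT11.1 and ZT11.4, near Dnajb1. None of the 3 heat shock factors, 5 small heat shock proteins, 9 mitochondrial chaperones or 14 splicing genes was called by limma.

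**Figure D5:**
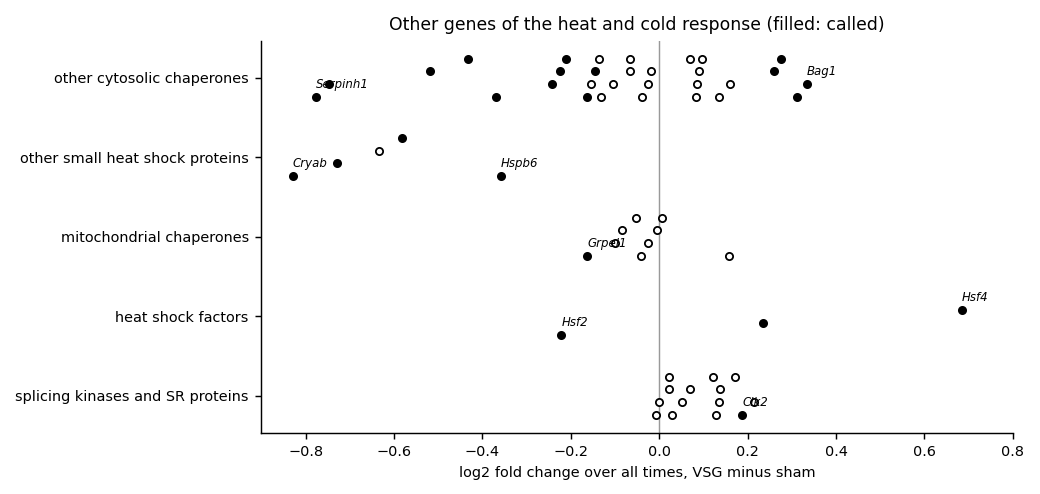
Log2 fold change of VSG minus sham over all times (horizontal axis) for single genes of 5 lists (rows), with called genes filled and the outermost called genes named. Called small heat shock proteins lie between -0.83 (Cryab) and -0.36 (Hspb6), and cytosolic chaperones lie on both sides of 0.

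The genes most like each member over the 32 libraries were found by Pearson's r among 12752 genes. Hspa1b was most like Hspa2 (r = 0.828), Hspa8 was most like Iffo2 (r = 0.799) and next the clock gene Cry1 (r = 0.795), and Hsph1 was most like Atf6 (r = 0.772). Cirbp was most like Fbxl6 (r = 0.897), Dnajb1 was most like Brat1 (r = 0.804), Hspb1 was most like Crip2 (r = 0.883), Hspe1 was most like Atp5e (r = 0.852), Rbm3 was most like Xrn2 (r = 0.87), Hspa1a was most like Slc6a8 (r = 0.826) and Hsp90aa1 was most like Caprin1 (r = 0.732). Among the members, Hspa8 and Hsph1 had r = 0.798, Hsph1 and Hsp90aa1 r = 0.717, and Hspa1a and Hspa1b r = 0.764, while Cirbp had r between -0.691 and -0.51 with each heat shock gene except Hspe1 (r = 0.225). Points share libraries, and those with RNA of other tissues enter all of these values.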

How the data were processed

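Reads came from subcutaneous fat of 32 mice. The submitters' processing notes name the build mm10, the aligner STAR 2.5.2a, featureCounts 1.5.0-p1 and DESeq2 1.24.0, without saying how each was used. The deposited table holds signal values in which, per library, 100% of entries are whole multiples of a step (tolerance 0.001), as counts scaled by a size factor would be, and whole reads were recovered from them. For the 17784 genes compared, the same values stand in 3 further deposited tables. Libraries of a group differed by a chi-square per degree of freedom of 19.6 to 172 over 48 pairs, so none was merged.

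The 15588 genes averaging 10 or more were fitted as log2(value + 1) with limma 3.58.1 (R 4.3.3, mean-variance trend, Benjamini-Hochberg adjustment over all tested genes, called at an adjusted p under 0.05). Fold changes on this scale understate changes of low genes. A model of 8 group means gave surgery effects and the interaction, and rhythms came from cosine and sine terms of 24 h fitted in each surgery. The members and lists were chosen with earlier results of these data known. Named genes were all members, called genes of the lists, and the genes nearest to each member by r. Alternatives were pseudocounts of 0.5 and 5, no filter or a mean of at least 50, TMM and quantile scaling, array weights, whole reads in DESeq2 1.42.0 and edgeR 4.0.16, marker covariates, other models, a block on the number in the sample title, and leaving out libraries. Steps were tested on simulated counts.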

Additional observations from a re-analysis of the deposited data

Results flagged for a closer look

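Of 80 combinations of member and group, 5 held a library whose gap to its nearest neighbour took more of the range of the 4 than the Dixon limit allows, where chance gives about 1 in 20. In VSG ZT7 replicate 4, Hspa1a stood at 49.6 against 36.6 to 38.3 in the other libraries, and Dnajb1 at 1530 against 1229 to 1271. In sham ZT19 replicate 1, Hsph1 stood at 1624 against 1114 to 1187. In VSG ZT1 replicate 1, which is high in B cell markers, Hspe1 stood at 799.6 against 930 to 942. In VSG ZT19 replicate 1, which is high in muscle markers, Cirbp stood at 2709 against 1892 to 2025.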

How the results depend on the processing

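Sample titles carry numbers that recur across times, though sham and VSG shared 0 at any one time, and nothing says what they mark. Deviations from the group mean correlated at -0.461 to 0.432 between libraries of the same number (median -0.0231), beside a median of 0.00494 for other numbers. The correlation was over 0.1 in 9 of 33 pairs, and 5 of 32 libraries correlated best with one of their own number. Counts expected by chance were not computed. With the title number as a replicate block, added after seeing the data, 0 members were called on surgery over all times and 0 for a rhythm in sham. For a rhythm over both, 3 were called (Hspa1b, Hspa8 and Cirbp), and genes called on surgery fell from 6108 to 236. The 3 surgery calls over all times were also made by edgeR and DESeq2 and with other pseudocounts, filters and TMM. The count was 0 with muscle and B cell markers as covariates, 1 without the libraries high in muscle markers, 1 without those high in B cell markers, 1 without both, 0 without the 5 libraries highest in B cell markers, and 2 to 4 on leaving out 1 library at a time. At ZT1 array weights called 2 members; at ZT13 array weights called 2 and the libraries of that time alone called 1. Hspb1 was lost under quantile scaling (adjusted p = 0.0557, range 0.0018 to 0.367), and array weights added Hsph1.

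For the rhythm over both surgeries, Hspa8 and Cirbp were called under every alternative run; the count of 5 was 2 with covariates, 3 without the muscle-high libraries, 3 without muscle-high and B-cell-high ones, 2 without the 5 highest in B cell markers, and 4 to 6 leaving out 1 library. Dnajb1 was lost in these 4 alternatives (adjusted p = 0.0789 to 0.128), and Hsph1 in them and without the B-cell-high or brown-fat-high libraries. In sham the count of 1 became 2 under TMM, 4 under array weights, 0 with covariates, 0 without the muscle-high libraries, 0 without both kinds, 2 without the 2 brown-fat-high ones, 0 in a test of any difference between times, 2 in sham libraries alone, 2 in edgeR, 3 in DESeq2 and 0 to 2 leaving out 1 library; under quantile scaling it stayed at 1 but was Hspa8 (adjusted p = 0.0306, range 0.00347 to 0.175) and not Hspa1b (0.0753, range 0.0014 to 0.109). After VSG the count of 0 became 1 under TMM, 1 under quantile scaling, 1 in the test of any difference, 2 in DESeq2 and 0 to 2 leaving out 1 library. With covariates 1 member (Hspb1) was called on sham weight loss. Hspa1b in sham was lost on leaving out any 1 of 10 sham libraries (adjusted p = 0.0524 to 0.109): all 4 at ZT13, ZT1 replicate 1, ZT7 replicates 1, 2 and 3, and ZT19 replicates 2 and 3. Leaving out 1 library also added calls: Hsph1 on surgery in 3 cases (sham ZT1 replicate 4, VSG ZT7 replicate 4, VSG ZT13 replicate 2), Hspa8 in sham in 5 (sham ZT19 replicate 2, VSG ZT1 replicate 2, VSG ZT7 replicates 2 and 4, VSG ZT13 replicate 1), Hspa8 after VSG in 4 (VSG ZT1 replicate 2, ZT7 replicate 4, ZT13 replicate 1, ZT19 replicate 1), and Cirbp after VSG and Hspa1a over both in 1 each (VSG ZT13 replicate 1). The causes were not tested.

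Signs of uncalled log2 fold changes over all times turned as follows. Hspa1a went to -0.021 under quantile scaling and -0.022 summed with Hspa1b. Hspa1b went to 0.13 with covariates, 0.068 without the B-cell-high libraries, 0.084 without both kinds, 0.14 without the 5 highest, and between -0.11 and 0.016 leaving out 1 library. Hspa8 went to 0.00045 under quantile scaling, 0.020 with covariates and 0.021 without the 5 highest. Hsp90aa1 went to 0.041 without both kinds. Hspe1 went to -0.024 without the muscle-high libraries and -0.010 without both kinds. Rbm3 went to -0.063 with the replicate block, -0.088 with covariates, -0.067 without the B-cell-high libraries, -0.018 without both kinds, -0.046 without the 5 highest, and between -0.02 and 0.070 leaving out 1. Cirbp at ZT19 went to -0.067 with covariates, -0.11 without the muscle-high libraries, -0.11 without both kinds, and between -0.063 and 0.15 leaving out 1. Without the muscle-high libraries, alone or with both kinds out, VSG ZT19 held 1 library. Hspb1 at ZT1 went to 0.18 with covariates, 0.17 without the B-cell-high libraries, 0.12 without the 5 highest, and between -0.39 and 0.051 leaving out 1. The alternatives without both kinds, without the 5 highest and without the brown-fat-high libraries were chosen after seeing the data. Hspa1a, with a mean of 45.0, gives no value at a minimum mean of 50. Over all genes, the rhythm count of 1030 over both surgeries was 434 without the muscle-high libraries, 451 without both kinds, 1600 in edgeR, 2381 in DESeq2, 2484 with array weights and 2659 in the test of any difference. At single times the counts of genes called moved more: 860 at ZT1 became 2 without the B-cell-high libraries and 1530 in DESeq2, 794 at ZT7 became 1390 without the B-cell-high libraries, 1549 at ZT13 became 46 without the muscle-high libraries, and 0 at ZT19 became 62 in DESeq2 and 906 with array weights. The rhythm counts of 250 in sham and 79 after VSG became 846 and 207 in DESeq2. The 423 genes on weight loss after VSG became 3 without the B-cell-high libraries. Depth limits Hspa1a most, with 21 to 91 reads.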
